A study of Mus musculus with 8 samples.

Results

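The clustered protocadherins are described here across mouse R1 embryonic stem cells, an established line, with and without ML-792. Members were the protein-coding genes of the deposited count table whose GENCODE M21 symbol begins with Pcdha, Pcdhb or Pcdhg. That gave 57 of 36920 genes: 14 Pcdha, 22 Pcdhb and 21 Pcdhg genes. One symbol, Pcdha11, belonged to 2 identifiers (ENSMUSG00000007440 and ENSMUSG00000102206), and both were kept as separate members. All 57 lie on the + strand of chromosome 18 between 36930184 and 37841873 (mm10), with the alpha genes first, then beta, then gamma.

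Clustered protocadherins are cell-surface adhesion proteins of the cadherin superfamily, best known in neurons, where each cell uses its own combination of isoforms as a mark of identity for self-avoidance. Each alpha and gamma gene has its own promoter and large variable exon, which is spliced to constant exons shared by its whole cluster, whereas a beta gene has no constant exons. Promoter choice is known to involve CTCF and cohesin, and silencing of the promoters involves DNA methylation and the chromatin proteins Smchd1 and Setdb1.

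ML-792 inhibits the enzyme that activates SUMO, a small protein that is attached to other proteins and changes their activity. The cells were cultured in serum with LIF and received ML-792 for 48 h from D1 to D3 and again from D8 to D10, at 2.5 mM as the labels write it. The 4 groups were D1 (control, before the first exposure), D3 (at the end of the first exposure), D8 (control, after withdrawal) and D10 (at the end of the second exposure), with 2 libraries each. No untreated D3 or D10 culture was among the 8 libraries, so an effect of ML-792 and an effect of 48 h more in culture cannot be told apart. The title of D1 replicate 2 gives D1 whereas its time tag gives day 0. The labels do not say whether the replicates were separate cultures, so each p-value reflects the spread of these libraries alone, and that spread may be technical.

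Reads assigned to genes ranged from 21040992 to 40835518 per library. The defining stem cell genes were abundant everywhere: the summed level of 10 markers was 4586 to 4780 CPM (the reads of a gene per 1000000 reads) at D1, 3659 to 3961 at D3, 4515 to 4593 at D8 and 3110 to 3165 at D10. D8 replicate 2 stood apart in base composition. Over 12590 coding genes, GC content was related to how far a gene's level in that library lay from its average, with a Spearman rho of 0.59. The rho was -0.12 and 0.11 in D1, -0.34 and -0.32 in D3, 0.09 in D8 replicate 1, and -0.38 and 0.03 in D10. Both D3 libraries thus lay below both D1 libraries in this trend, and both D10 libraries below both D8 libraries. Values without this library stand beside each member called in the second exposure.

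Most of the cluster was silent or close to it, and the gamma genes carried nearly all of its reads. Over the 8 libraries the members together had 18991 reads, of which the gamma genes held 96.3%. Pcdhga1 alone held 18.7% and Pcdhgc3 14.01%. The 14 alpha genes had 136 reads in all, between 2 and 42 per library, and the 22 beta genes had 569. Pcdhb10 had no read in any library, which by the 3-read limit allows a level of up to 0.0713 CPM in the deepest library and 0.143 CPM in the shallowest. These limits cover counting error only.

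A total of 23 members had enough reads to be tested: 21 gamma genes, 2 beta genes (Pcdhb14 and Pcdhb22) and no alpha gene. The untested member with the most reads was Pcdhb2, with 42 over the 8 libraries, and the tested member with the fewest was Pcdhb14, with 75. Pcdhb14 reached the filter's level of 0.340 CPM in 0 of 4 control libraries and 4 of 4 ML-792 libraries. It therefore entered the test through the treated libraries, and the other 22 did not depend on them. How the authors' counting treated reads on the shared constant exons is not stated. Such reads were not given to every gene of a cluster, since some alpha genes had 0 reads in each library and the lowest gamma gene had between 4 and 25. Of the tested beta genes, Pcdhb22 overlaps its neighbour Pcdhb21 at 1 end.

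The summed level of each cluster was higher at the end of both exposures. For Pcdha, the sum was 0.0956 and 0.248 CPM in D1, 1.09 and 0.592 in D3, 0.360 and 0.257 in D8 and 0.892 and 0.998 in D10. Both libraries of each treated group lay above all 4 control libraries. The ratio of the group means was 4.90 for D3 over D1 and 3.06 for D10 over D8, on very few reads.

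For Pcdhb, the genes free of shared constant exons, the sum was 1.29 and 0.839 CPM in D1, 3.96 and 2.33 in D3, 1.80 and 1.38 in D8 and 4.90 and 3.21 in D10. Treated and control libraries again did not overlap. The ratios of the group means were 2.95 and 2.55. For Pcdhg, the sum was 59.6 and 56.0 CPM in D1, 119.6 and 94.8 in D3, 59.2 and 44.6 in D8 and 115.7 and 86.2 in D10. The lowest treated library stood above the highest control, and the ratios of the group means were 1.85 and 1.95. The 34 untested members summed to 0.796 ± 0.159 CPM (SD, n = 2) at D1 and 2.67 ± 1.22 at D3, and to 1.17 ± 0.473 at D8 and 3.39 ± 0.531 at D10. In bulk RNA, more cells that use a gene and more RNA per cell cannot be told apart.

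**Figure D1:**
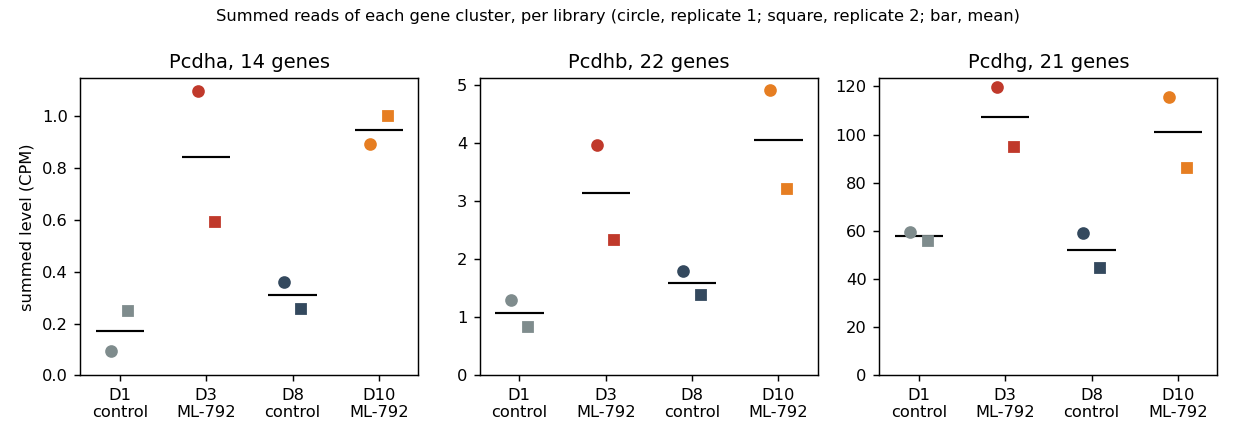
Summed level of the alpha, beta and gamma genes (CPM, each axis from 0) in the 8 libraries, with circles for replicate 1, squares for replicate 2 and a bar for the mean of the group. In all 3 panels the 4 ML-792 libraries lie above the 4 control libraries, on scales that run from about 1 CPM for alpha to over 100 CPM for gamma.

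The first exposure was examined by comparing D3 with D1. Of the 23 tested members, 3 rose and none fell (edgeR quasi-likelihood test, adjusted p under 0.05 over 19173 genes), that is 13.0% of members, where 7.92% of all tested genes rose and 5.1% fell. The 3 were gamma genes near the 5′ end of the cluster: Pcdhga1, Pcdhga2 and Pcdhgb1, with Pcdhga3, which did not pass, lying between the last pair. The median log2 fold change over the 23 was 0.84, against 0.00 over all genes. A positive value was found in 22 of 23, beside 9554 of 19173 genes. The members share libraries and a locus, and the gamma genes share constant exons, so these are descriptions and not separate tests. Both D3 libraries lay above both D1 libraries in 17 of 23 members, where this held for 32.8% of all genes. The 17 include Pcdhb14, which entered the test through the treated libraries. It gives no support to this count, the median or the count of positive values. Over the 21 gamma genes alone the median was 0.82, and 20 had a positive value.

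The second exposure was examined by comparing D10 with D8. The libraries compared are not those of the first comparison. The filter and the spread behind its p-values came from all 8 libraries, so its calls are not independent of the first. Here 4 of 23 members rose and none fell, 17.4% of members against a background of 9.27% that rose and 7.65% that fell. They were Pcdhb14, Pcdhga1, Pcdhga2 and Pcdhga7. Pcdhb14 entered the test through the treated libraries and gives no support to this count. Among the 21 gamma genes alone 3 rose, 14.3%. The median was 0.91, against 0.03 over all genes, and all 23 tested members had a positive value, beside 10025 of 19173 genes. The D10 libraries lay above the D8 libraries in 20 of 23 members, against 27.2% of all genes. The 20 include Pcdhb14, which gives no support to this count, the median or the count of positive values. Without D8 replicate 2 the median was 0.61, and Pcdhga1 was then the member that rose.

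Pcdhga1 (ENSMUSG00000103144, 37661793 to 37841873), the first gene of the gamma cluster and the member with the most reads over the 8 libraries together, was high in both treated groups. Its level was 8.99 and 7.86 CPM in D1, 30.4 and 21.3 in D3, 8.15 and 4.83 in D8 and 21.8 and 19.8 in D10. Every treated library had more than 2 times the level of any control library. The log2 fold change was 1.62 ± 0.28 (SE, adjusted p = 0.0085, edgeR) in the first exposure and 1.68 ± 0.28 (adjusted p = 0.0060) in the second. Without D8 replicate 2 the second value was 1.32 (adjusted p = 0.021).

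Pcdhga2, the next gene along, was at 2.92 and 2.61 CPM in D1, 11.0 and 6.37 in D3, 2.81 and 1.87 in D8 and 8.63 and 5.13 in D10. Both treated groups lay above all 4 controls, although their replicates lay far apart. It rose by 1.65 ± 0.38 on the log2 scale (adjusted p = 0.024, edgeR) and by 1.55 ± 0.38 (adjusted p = 0.025). Without D8 replicate 2 the second value was 1.25 with an adjusted p of 0.12.

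Pcdhgb1, the first B-type gene, was at 1.004 and 0.963 CPM in D1, 4.72 and 2.19 in D3, 1.34 and 0.708 in D8 and 3.20 and 1.73 in D10. All 4 treated libraries were above all 4 controls, with replicate 1 the higher of each treated pair. It rose by 1.80 ± 0.50 in the first exposure (adjusted p = 0.049, edgeR), and its value in the second was 1.25 ± 0.50 (adjusted p = 0.12). Pcdhga7, in the middle of the gamma cluster, was at 2.63 and 2.48 CPM in D1, 5.43 and 4.49 in D3, 3.01 and 2.12 in D8 and 7.62 and 4.11 in D10. Its highest value was D10 replicate 1, and again no treated library fell into the control range. The second exposure gave 1.18 ± 0.34 (adjusted p = 0.048, edgeR) and the first 0.96 ± 0.35 (adjusted p = 0.11). Without D8 replicate 2 the second value was 0.92 (adjusted p = 0.21), and Pcdhga7 passed there in 2 of the 8 fits that each leave out 1 library.

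Pcdhb14 (ENSMUSG00000044043, 37447656 to 37456350), a single-exon beta gene, was at 0.191 and 0.155 CPM in D1, 0.631 and 0.488 in D3, 0.0981 and 0.0965 in D8 and 0.648 and 0.356 in D10. The 2 D8 libraries were the lowest and no groups of treated and control libraries overlapped. It rose by 2.28 ± 0.58 in the second exposure (adjusted p = 0.031, edgeR), where its value without D8 replicate 2 was 2.23 (adjusted p = 0.14). In the first exposure it had 1.68 ± 0.55 (adjusted p = 0.082). Pcdhb22, the other tested beta gene, was at 0.287 and 0.248 CPM in D1, 0.884 and 0.627 in D3, 0.556 and 0.708 in D8 and 1.38 and 0.832 in D10. Its D8 level lay between that of D1 and D10, with an overlap with D3, and it passed in neither exposure (1.49 ± 0.49, adjusted p = 0.080, and 0.78 ± 0.41, adjusted p = 0.23).

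**Figure D2:**
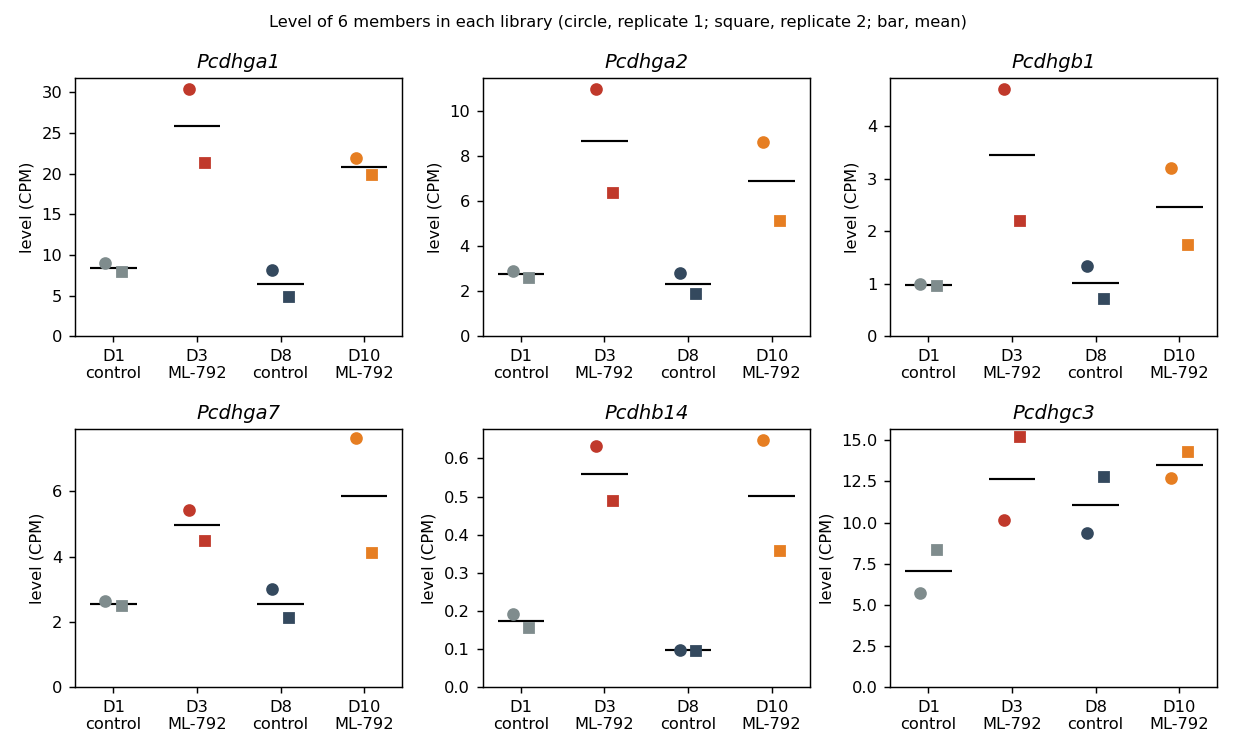
Level in each library (CPM, each axis from 0) of 6 tested members, with circles for replicate 1, squares for replicate 2 and a bar for the group mean. Pcdhga1, Pcdhga2, Pcdhgb1, Pcdhga7 and Pcdhb14 are higher at D3 and D10 than in both control groups, whereas the Pcdhgc3 levels at D8 reach those of D3 and D10.

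The C-type genes lie at the 3′ ends of the alpha and gamma clusters and, in neurons, are used constitutively rather than chosen at random. Pcdhgc3 was the most abundant of them, at 5.74 and 8.36 CPM in D1, 10.1 and 15.2 in D3, 9.36 and 12.7 in D8 and 12.7 and 14.3 in D10. Its D8 libraries came near those of D3 and D10, unlike those of Pcdhga1. The log2 fold change was 0.84 ± 0.28 in the first exposure (adjusted p = 0.086, edgeR) and 0.29 ± 0.28 in the second (adjusted p = 0.52), and 0.64 ± 0.28 between D8 and D1 (adjusted p = 0.41). In the first exposure Pcdhgc3 passed with offsets for GC content and length (adjusted p = 0.027) and by DESeq2 (adjusted p = 0.038). It also passed with no filter on low counts and with the replicate number as a block, with or without these offsets. It did not pass with RLE scaling or with a filter of at least 1 CPM in 2 libraries.

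Pcdhgc4 was at 0.383 and 0.777 CPM in D1, 0.842 and 0.871 in D3, 0.687 and 0.579 in D8 and 0.932 and 0.642 in D10. Pcdhgc5 was at 0.287 and 0.808 CPM in D1, 1.14 and 0.766 in D3, 0.752 and 0.740 in D8 and 1.26 and 0.879 in D10. Both had overlapping treated and control libraries and their lowest adjusted p in either exposure was 0.40 (edgeR). The alpha C-type genes were almost unread: Pcdhac1 had 3 reads and Pcdhac2 had 29 over the 8 libraries.

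Levels can be set side by side after division by the length of exon that a gene does not share with another gene on its strand. On that scale Pcdhga1 led the members at D1 with 2.59 CPM per kb and at D3 with 7.96. Pcdhgc3 followed with 2.08 and 3.75 CPM per kb, then came Pcdhga2 at D3 with 3.37. At D8 the order of the leading pair was the other way round, with 3.27 for Pcdhgc3 and 1.998 for Pcdhga1, and at D10 Pcdhga1 was at 6.42 and Pcdhgc3 at 3.99. Pcdhb14 was the lowest of the tested members, with 0.0199 CPM per kb at D1 and 0.0643 at D3. Where constant-exon reads were counted is unknown, so these per-kb levels are approximate for gamma genes.

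**Figure D3:**
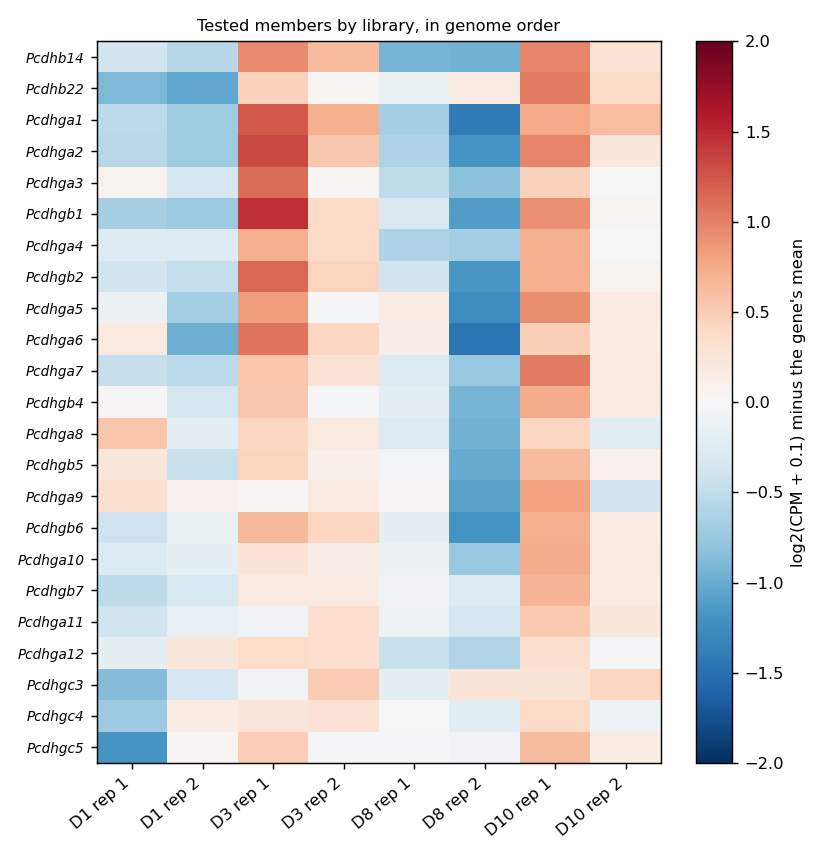
The 23 tested members (rows, in genome order) in the 8 libraries (columns), coloured by log2(CPM + 0.1) minus the mean of the gene, blue for lower and red for higher. The D3 and D10 columns are mostly red, in D3 replicate 1 most strongly in the upper gamma rows, and D8 replicate 2 is the lowest library for 17 of 23 members.

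Libraries of 1 group differed along the whole cluster. Replicate 1 was above replicate 2 in 19 of 23 members at D3, in 22 of 23 at D10, in 21 of 23 at D8 and in 15 of 23 at D1. D10 replicate 1 was the highest library for 13 members and D3 replicate 1 for 8. The calls are sensitive to this spread. Each fit without 1 library was filtered anew. All but the fit without D10 replicate 1 then tested 26 members rather than 23. Pcdhb2, untested in the main fit, is counted in the second exposure without D8 replicate 1. It had 0 reads in the remaining D8 library and 11 and 12 in D10, so it gives no support to that count. Over all genes the share that rose moved in the same direction in each of the fits that follow. These counts therefore show nothing particular to the members. In the first exposure no member passed without D1 replicate 1, without D1 replicate 2 or without D3 replicate 1. In the second exposure 1 member passed without D8 replicate 2 or without D10 replicate 1, 2 without any 1 of the D1 or D3 libraries, and 9 without D8 replicate 1.

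Pooling all 4 ML-792 libraries against all 4 controls, in a fit of its own with a spread that includes the differences between days, gave 9 members that rose and none that fell. That is 39.1% of the tested members where 15.3% of all genes rose and 13.4% fell. The 9 were Pcdhb14 (1.95 ± 0.39), Pcdhga1 (1.65 ± 0.21), Pcdhga2 (1.61 ± 0.27), Pcdhgb1 (1.55 ± 0.35), Pcdhgb2 (1.26 ± 0.29), Pcdhga7 (1.08 ± 0.24), Pcdhgb6 (0.99 ± 0.29), Pcdhga4 (0.98 ± 0.25) and Pcdhga10 (0.68 ± 0.22), as log2 fold changes with their SE. Pcdhb14 entered the test through the treated libraries and gives no support to this count. Among the 21 gamma genes alone 8 rose, 38.1%. The treated and control ranges did not overlap in 11 of 23 members, against 16.1% of all genes. The 11 include Pcdhb14, which gives no support to this count either. Pcdhga10 lies opposite the antisense transcript Gm26672 along its whole unshared sequence, and the strand setting of the counting is not stated. When each library was left out in turn, Pcdhga10 passed in 0 of 8 fits (adjusted p 0.057 to 0.13), Pcdhgb6 in 4 of 8 (up to 0.073) and Pcdhga4 in 7 of 8 (up to 0.0503). The remaining 6 passed in 8 of 8.

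Whether the members returned after withdrawal was examined by comparing D8 with D3 and with D1. Against D3, 7 of 23 members fell and none rose, 30.4% of members where 11.2% of all genes fell and 11.3% rose. They were Pcdhb14 (-2.47 ± 0.58), Pcdhga1 (-1.99 ± 0.28), Pcdhga2 (-1.89 ± 0.38), Pcdhgb1 (-1.74 ± 0.50), Pcdhgb2 (-1.62 ± 0.40), Pcdhga3 (-1.36 ± 0.40) and Pcdhga4 (-1.29 ± 0.36). This comparison uses the D3 and D8 libraries of the exposure comparisons, so it is no separate evidence for them. Pcdhb14 entered the test through the treated libraries and gives no support to the count. Among the 21 gamma genes alone 6 fell, 28.6%. Both D8 libraries were below both D3 libraries in 20 of 23 members, against 31.6% of all genes. The 20 include Pcdhb14, which gives no support to this count either. The share of all genes called lower went down as well in each of the fits that follow, which leave out 1 library. The smaller counts there are therefore not particular to the members. One member, Pcdhga1, passed without D3 replicate 1 (the count fell from 7 to 1), and likewise without D8 replicate 2, where its value was -1.64 (adjusted p = 0.0079). Without D1 replicate 1 or D1 replicate 2, 4 members passed.

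Against D1, no member passed in D8 (edgeR), where 0.177% of all genes passed in either direction. At an unadjusted p under 0.05 (edgeR) there were 2 of 23 members, beside 2311 of 19173 genes, and DESeq2 also called 0 members. The median over the 23 was -0.24, and 0.10 without D8 replicate 2, so its sign rested on that library. Pcdhga1 was at 8.42 ± 0.80 CPM (SD, n = 2) at D1 and 6.49 ± 2.35 at D8. The D8 libraries were both above the D1 libraries in 3 members and both below in 6, against 21.6% and 20.3% of all genes.

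The difference between the responses of the 2 exposures was tested as an interaction. No member passed (edgeR, adjusted p under 0.05), where over all genes 0% passed, and DESeq2 called 0 members. None of the 23 had an unadjusted p under 0.05 (edgeR), beside 575 of 19173 genes. The median difference over the members was 0.13, and it ranged from -0.15 to 0.48 with 1 library left out, below 0 without D3 replicate 2, D8 replicate 2 or D10 replicate 1. The member with the largest difference was Pcdhga9, at 0.85 ± 0.67: its first exposure gave -0.10 ± 0.47 and its second 0.76 ± 0.47. For Pcdhga1 the difference was 0.07 ± 0.38.

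Along the gamma cluster the log2 fold changes were larger toward the 5′ end. Across the 18 A-type and B-type genes the log2 fold change fell with the position of the gene's start, at a Spearman rho of -0.76 (Pearson r -0.77) in the first exposure and -0.81 (r -0.79) in the second. These are descriptions over 18 genes, which share libraries, constant exons and a chromosomal domain. Over the same genes the rho with GC content was -0.05 and 0.09, and with the mean level -0.10 and 0.12. Leaving out 1 library at a time or changing scaling, filter, tool, block or GC offsets (15 settings) gave a rho of -0.83 to -0.50 in the first exposure and -0.82 to -0.59 in the second. Between D8 and D1 the rho was 0.02.

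**Figure D4:**
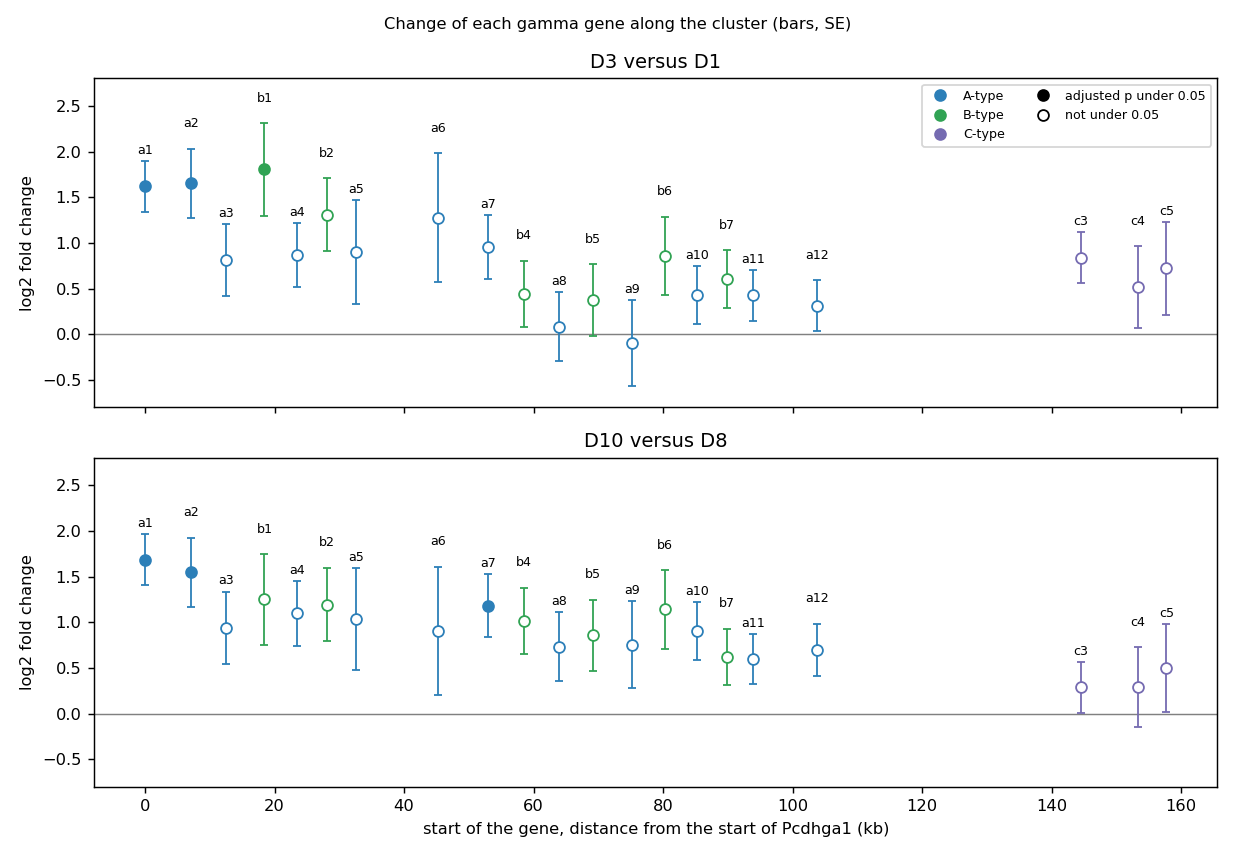
Log2 fold change (points, with bars of 1 SE) of the 21 gamma genes against the distance of their start from that of Pcdhga1 (kb), for D3 versus D1 and D10 versus D8, with filled points for an adjusted p under 0.05. In both panels the highest points are at the left, from Pcdhga1 on, and the C-type genes at the far right lie lower in the second exposure than in the first.

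The first 6 gamma genes, Pcdhga1, Pcdhga2, Pcdhga3, Pcdhgb1, Pcdhga4 and Pcdhgb2, were set apart after their values were seen, so their figures are descriptions. Their median log2 fold change was 1.46 in the first exposure and 1.22 in the second, against 0.44 and 0.88 in the other 12 A-type and B-type genes. Pcdhga3 had 3.97 and 2.95 CPM in D1, 8.34 and 3.83 in D3, 2.62 and 2.09 in D8 and 5.27 and 3.80 in D10. Its D3 replicate 2 lay inside the D1 range, and it passed in neither exposure. Pcdhgb2 had 1.91 and 1.77 CPM in D1, 5.68 and 3.45 in D3, 1.90 and 1.06 in D8 and 4.17 and 2.64 in D10. Pcdhga4 had 1.24 CPM in both D1 libraries, 2.57 and 1.99 in D3, 0.949 and 0.901 in D8 and 2.51 and 1.50 in D10. In both genes the treated libraries lay above the controls, with adjusted p of 0.066 and 0.076 for Pcdhgb2 and 0.15 and 0.068 for Pcdhga4 in the first and second exposures (edgeR).

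A share of reads does not depend on the scaling between libraries. The first 6 genes took 37.6% (95% Wilson interval 34.8 to 40.5) and 37.8% (35.4 to 40.3) of A-type and B-type gamma reads at D1, and 58.3% (56.4 to 60.2) and 50.2% (48.1 to 52.2) at D3. At D8 the share was 36.7% (34.3 to 39.2) and 37.5% (34.5 to 40.6), and at D10 it was 45.3% (43.3 to 47.2) and 49.2% (47.4 to 51.0). The 4 control libraries lay within 2 percentage points of each other and every treated library was above them, by more than its interval; the 2 D3 libraries also differed from each other beyond theirs. With Pcdhga1 left out, the next 5 genes took 25.0% and 25.0% in D1, 41.9% and 31.4% in D3, 23.9% and 25.8% in D8 and 30.1% and 29.3% in D10. Since these genes were set apart by their fold changes, both sets of shares restate that choice and support nothing. D8 replicate 2 did not stand apart in these shares.

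**Figure D5:**
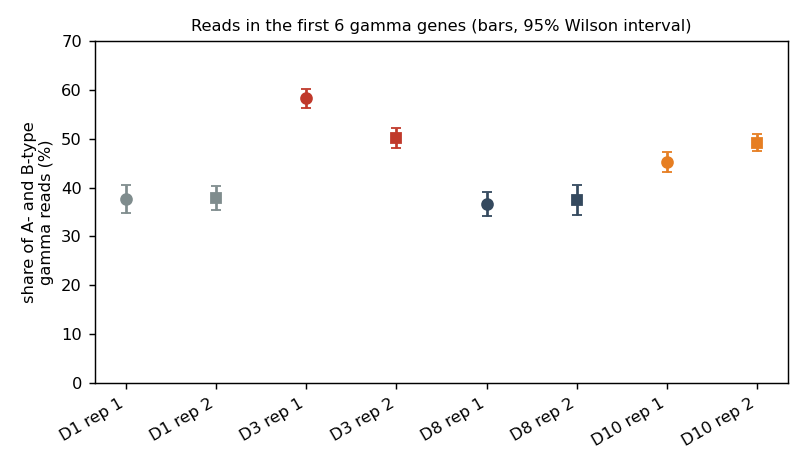
Share of the A-type and B-type gamma reads (%, axis from 0) that fell in the first 6 gamma genes in each library, with bars for the 95% Wilson interval, which covers counting error only. The 4 control libraries sit at 36.7% to 37.8% and the 4 ML-792 libraries at 45.3% to 58.3%.

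Toward the other end of the A-type and B-type row no gene after Pcdhga7 passed in either exposure by edgeR with the filter and design used here. By DESeq2, and by edgeR with no filter on low counts, Pcdhgb4, which lies after Pcdhga7, passed in the second exposure. Pcdhga8 had 5.31 and 3.14 CPM in D1, 4.80 and 4.11 in D3, 2.94 and 1.80 in D8 and 4.86 and 3.09 in D10. Pcdhga9 had 3.54 and 3.01 CPM in D1, 2.90 and 3.20 in D3, 2.88 and 1.29 in D8 and 4.98 and 2.14 in D10. In both, the treated libraries overlapped those of D1. The last A-type gene, Pcdhga12, had log2 fold changes of 0.31 ± 0.28 and 0.70 ± 0.28, and Pcdhga11 had 0.43 ± 0.28 and 0.60 ± 0.27, none of which passed. In the rest of the row, Pcdhgb6 and Pcdhga10 had 0.86 and 0.43 in the first exposure and 1.14 and 0.90 in the second. The genes Pcdhga5, Pcdhga6, Pcdhgb4, Pcdhgb5 and Pcdhgb7 had values of 0.37 to 1.28 in the first exposure and 0.62 to 1.04 in the second. None of them passed in either by edgeR with the filter and design used here.

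Among other transcripts of the locus, the lincRNA 3222401L13Rik ends 50 bases before the start of Pcdhga1 on the same strand. It was at 8.22 and 7.77 CPM in D1, 21.7 and 15.3 in D3, 7.72 and 4.96 in D8 and 16.9 and 14.8 in D10. Its treated libraries all lay above its control libraries, as for Pcdhga1. It rose by 1.21 ± 0.26 (adjusted p = 0.020, edgeR) and by 1.32 ± 0.26 (adjusted p = 0.012), and D8 versus D3 gave -1.54 ± 0.26 (adjusted p = 0.0049). It did not pass in the first exposure without D1 replicate 1, D1 replicate 2 or D3 replicate 1 (adjusted p 0.10 to 0.16), nor in the second without D8 replicate 2 or D10 replicate 1 (0.055 and 0.056). Gm26672, which runs antisense to the 3′ part of the A-type and B-type row, had 0.96 ± 0.32 (adjusted p = 0.082) and 1.05 ± 0.32 (adjusted p = 0.054) in the 2 exposures, and passed when all treated and control libraries were compared (adjusted p = 0.0084). The other 3 non-member transcripts tested there did not pass in either exposure: the antisense BC037039 had -0.31 and -0.24, the pseudogene Gm8242 0.23 and 0.66, and Pcdhgb8, annotated as a polymorphic pseudogene and so no member, -0.15 and 0.61.

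Neither coding gene tested between the beta and gamma clusters passed. Taf7, a subunit of the general transcription factor TFIID, had 0.22 ± 0.19 and 0.34 ± 0.19, and the mitochondrial carrier gene Slc25a2 had 0.65 ± 0.44 and 1.14 ± 0.45 (adjusted p = 0.12 in the second). Of 43 coding genes annotated within 1 Mb of the clusters, 34 were tested. In the first exposure 2 rose (Fgf1, 1.89 ± 0.33, a growth factor, and Spry4, 0.93 ± 0.14, a feedback inhibitor of growth factor signalling) and 4 fell. In the second the same 2 rose and 5 fell. The shares over all tested genes were 7.92% higher and 5.1% lower in the first exposure, and 9.27% and 7.65% in the second. Hbegf, a growth factor of the EGF family, fell by 1.59 and 1.004 on the log2 scale, and Gnpda1, an enzyme of glucosamine metabolism, by 0.63 and 0.86. Their median was -0.12 and -0.15, against 0.84 and 0.91 over the tested protocadherins.

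Of 26 known or candidate regulators of the cluster, all were tested, 2 rose and 1 fell in each exposure. Over all tested genes 7.92% rose and 5.1% fell in the first exposure, and 9.27% and 7.65% in the second. The shares of the list were no higher than these. Atf7ip, the partner of the histone methyltransferase Setdb1, rose by 1.90 ± 0.17 and 1.98 ± 0.17, and the DNA methyltransferase Dnmt3a by 1.56 ± 0.14 and 2.12 ± 0.14. Rest, a repressor of neuronal genes, fell by 0.69 in both. None of Ctcf (-0.01 and 0.00), the cohesin subunit Rad21 (-0.14 and -0.06), Smchd1 (0.18 and 0.27), Setdb1 (0.10 and 0.01) or the DNA methyltransferase Dnmt3b (0.27 and 0.18) passed in either exposure.

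Other cadherin genes moved in both directions. Beside them, 7.92% of all tested genes rose and 5.1% fell in the first exposure, and 9.27% and 7.65% in the second. Of 12 non-clustered protocadherins 7 were tested, and 3 rose in the first exposure: Pcdh8 (4.98 ± 0.46), Pcdh9 (4.25 ± 0.59) and Pcdh17 (3.87 ± 0.78). In the second, 4 rose: Pcdh8 (5.69 ± 0.46), Pcdh17 (4.82 ± 0.91), Pcdh10 (3.79 ± 0.67) and Pcdh9 (3.12 ± 0.58). Pcdh8 was at 0.0956 and 0.217 CPM in D1 and at 6.53 and 4.28 in D3. In all 4 control libraries Pcdh8, Pcdh9, Pcdh10 and Pcdh17, and likewise Cdh8 and Cdh10 of the classical cadherins below, were under the filter's level of 0.340 CPM. They entered the test through the treated libraries and give no support to a rise of the list. Of 10 classical cadherins, 3 rose and 1 fell in the first exposure, and 4 rose and 1 fell in the second. Cdh10 rose by 2.55 ± 0.53 and 3.50 ± 0.50 and Cdh4 by 1.17 ± 0.31 and 1.24 ± 0.30, Cdh3 (0.69 ± 0.18) rose in the first, and Cdh8 (4.91 ± 0.91) and the N-cadherin gene Cdh2 (1.51 ± 0.30) in the second. Cdh1, the E-cadherin of stem cell contacts, was the one that fell, by 0.71 and 0.76. Of 11 genes for proteins that bind or process clustered protocadherins, none passed in either exposure (edgeR).

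Markers of other cells were read beside these changes. The background for their counts was 7.92% of all tested genes higher and 5.1% lower in the first exposure, and 9.27% and 7.65% in the second. Of 15 neural markers 12 were tested; Tubb3, a neuronal tubulin, fell in both exposures and none rose in either. Nes, an intermediate filament gene of neural progenitors, was at 19.7 and 23.3 CPM in D1, 44.2 and 38.2 in D3, 20.7 and 40.2 in D8 and 48.4 and 60.96 in D10, and rose when all treated and control libraries were compared (0.88 ± 0.23, adjusted p = 0.018, edgeR). Stmn2, at 218 to 271 CPM, made up over 50% of the markers' sum in every library. Their summed level was 390 to 411 CPM at D1, 389 to 414 at D3, 384 to 414 at D8 and 356 to 358 at D10, and the neuronal gene Dcx stayed at or below 0.0811 CPM in every library. All 6 markers of 2-cell-like cells, a rare state of stem cell cultures, rose in both exposures, with a summed level of 18.7 to 31.2 CPM at D1, 290 to 791 at D3, 3.01 to 6.24 at D8 and 187 to 218 at D10. Among them Duxf3 was under the filter's level of 0.340 CPM in D1 replicate 1 and both D8 libraries. It entered the test through the treated libraries, so its rise gives no support to that of the list. Of the 10 stem cell markers 1 fell in the first exposure and 6 in the second. Of 8 fibroblast markers 6 were tested, with Twist2 rising in the first exposure (no read in D1, 0.421 and 0.139 CPM in D3), and Fbn1 rising (1.14 ± 0.26) and Pdgfrb falling (-1.73 ± 0.34) in the second. Twist2 was under the filter's level in every control library and likewise entered the test through the treated libraries. The collagen gene Col1a1 was at 0.478 to 1.48 CPM in the controls and 0.892 to 2.42 in the treated libraries, and Col1a2 at 0.335 to 4.02 and 0.851 to 1.996. The fibroblast markers summed to 25.1 to 29.4 CPM at D1, 27.0 to 40.2 at D3, 22.5 to 30.6 at D8 and 27.2 to 38.0 at D10, with Postn at or below 0.0475 CPM in every library. The part of these marker changes in the protocadherin result was not tested.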

How the data were processed

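Raw read counts per gene were made and deposited by the authors for 8 libraries. Per the labels' protocols, libraries came from total RNA depleted of ribosomal RNA with a strand-marking kit, although the labels name the molecule polyA RNA. Per the submitters' processing notes, bcl2fastq 2.17.1.14, STAR 2.5.0a and featureCounts were used with mm10. The annotation release, the strand setting and how reads shared between genes were counted: not given in the sources used here. Symbols were taken from GENCODE M21 for 36901 of 36920 identifiers.

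Counts were filtered with filterByExpr by group (19173 genes kept), scaled by TMM and fitted with edgeR 4.0.16 (R 4.3.3) quasi-likelihood models, with 1 term per group (4 residual degrees of freedom) or, for all ML-792 against all control libraries, 1 term for treatment (6). Benjamini-Hochberg adjustment covered all kept genes, with calls at an adjusted p under 0.05. CPM values are per 1000000 reads in kept genes after TMM scaling. The biological coefficient of variation was 19.6%.

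The members and gene lists were chosen with earlier results of these data known. Values in every library are given for each member called in an exposure or in D8 versus D1 and for each C-type gene, and, beyond that rule, for Pcdhb22, Pcdhga3, Pcdhga4, Pcdhga8, Pcdhga9, Pcdhgb2, Pcdh8, 3222401L13Rik and Nes, which, like the fibroblast markers described, were picked after their values were seen; up to 4 called genes are named from each list. Alternatives were RLE scaling, DESeq2 1.42.0, 2 other filters, offsets for GC content and length, the replicate number as a block, Pcdhb genes only, and each library left out. No sequences are shown, and promoters and proteins of the members were not analysed here.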

Additional observations from a re-analysis of the deposited data

Results flagged for a closer look

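Among the 4 control or the 4 ML-792 libraries, 4 of 46 groups of values held 1 library that lay far from the rest by Dixon's test at the 95% level; chance gives about 1 in 20. Pcdhgb2 was lowest among controls in D8 replicate 2, at 1.06 CPM, with the next library at 1.77. Pcdhgb7 was highest among ML-792 libraries in D10 replicate 1, at 3.20 CPM, with the next at 2.23. Pcdhga12 was lowest among ML-792 libraries in D10 replicate 2, at 2.78 CPM, with the next at 3.57. Pcdhgc5 was lowest among controls in D1 replicate 1, at 0.287 CPM, with the next at 0.740.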

How the results depend on the processing

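With 2 libraries a group, the number of protocadherin members called moved with the processing, and no named member changed sign in a comparison in which it was called. In D3 versus D1, where 3 members were called, DESeq2 called 5 (8.82% of all genes rose), no filter on low counts 6 of 56 tested (6.72%) and the Pcdhb genes alone 0; leaving out 1 library gave 0 to 4, while the calls over all genes, 1518 higher, went down to 235 without D1 replicate 2. In D10 versus D8 (4 called), no filter gave 9 of 56 (7.51%) and Pcdhb genes alone 1. Leaving out 1 library moved this count, the number of members tested and the share over all genes. In D8 versus D3 (7), Pcdhb genes alone gave 1, and leaving out 1 library likewise moved the count and the share over all genes. For all ML-792 against all control libraries (9), DESeq2 gave 14 (17.2%), no filter 14 of 56 (9.75%) and Pcdhb genes alone 1. Leaving out 1 library gave 7 to 11 of 23 or 26 tested members (11.4% to 14.6% of all genes rose). In all but the fit without D10 replicate 1 these included Pcdhb2, untested in the main fit, with 0 to 3 reads in each control library. D8 versus D1 and the difference of responses gave 0 members in all 16 alternatives each. With the replicate number as a block, 6, 13, 15 and 14 members were called in these 4 comparisons in turn, while calls over all genes in the same direction grew to 12.5%, 14.6%, 17.5% and 17.3%; with the block and offsets for GC content and length they were 7, 16, 16 and 17, beside 14.3%, 15.4%, 17.6% and 18.8%. In D10 versus D8 the block added Pcdhgb4, Pcdhgb5, Pcdhgb6 and Pcdhga10 after Pcdhga7, and the offsets then Pcdhga8, Pcdhga12 and Pcdhgc3. Same-numbered libraries deviated together with a correlation of 0.10 to 0.50 over 6 pairs of groups, but no label says what the number stands for. Leaving an arm with 1 library assumes that it varies like the other groups. Pcdhga1 passed in 8 of 8 such fits in D10 versus D8 and in 5 of 8 in D3 versus D1; Pcdhb14 passed in 1 of 8 in D10 versus D8. The cause of these moves was not tested. Where a member was called with Pcdhb genes alone, it was Pcdhb14, which entered the test through the treated libraries. The low-count filter left 34 members untested. Without it Pcdhb17 also passed in D3 versus D1 (0 and 0 reads in D1, 7 and 3 in D3). In D10 versus D8, Pcdha6 (0 and 0 reads in D8, 4 and 11 in D10) and Pcdhb2 (3 and 0, then 11 and 12) passed. These calls rest on very few reads, and the counts out of 56 rest in part on such members.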
